A study of Mus musculus with 2 samples.

Results

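Rn7sk, Snora81, Rn45s and Malat1 are noncoding RNAs that work in the nucleus or nucleolus. Mov10 is an RNA helicase, and the RIP-seq compared RNA that came down with a Mov10 antibody (the IP) with total input RNA from the same brain tissue. The 6 peaks of the 4 genes were taken from 2296 listed peaks because they share at least 1 base with the RefSeq or GENCODE span of the gene, on the strand opposite the one the peak list gives. The paper states a larger number of peaks than this list holds, for a reason not known here. All ranks and shares below refer to this list. The 4 genes were chosen by their measured read counts in these libraries, which were known to be higher in the input for Rn7sk, Snora81 and Rn45s and higher in the IP for Malat1, so the directions are a description and are not tested. Both libraries came from the brains of 28 pooled C57bl/6 WT pups at P2, with no other allele or treatment named in the labels, and were not UV cross-linked. There was 1 Mov10 IP library and 1 input library, so no replicate check was possible and the spread between pools of pups is unknown. Lysates had been cleared by ultracentrifugation and passed over an irrelevant antibody before the Mov10 IP, and whether the input was taken before or after clearing, and how RNA was selected for the libraries, is not given in the sources used here. Fewer cells of a type and less RNA per cell cannot be told apart in such a pool.

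7SK RNA, the product of Rn7sk, is an abundant RNA polymerase III transcript that holds the elongation factor P-TEFb in an inactive particle with Hexim proteins, while Larp7 binds its U-rich 3′ end. Snora81 is an H/ACA small nucleolar RNA, a class that folds into hairpins and guides the conversion of uridine to pseudouridine, and it lies within the gene of the translation initiation factor Eif4a2. Rn45s is the precursor that is cut into 18S, 5.8S and 28S ribosomal RNA, with spacer RNA discarded on the way. Malat1 is a long noncoding RNA of nuclear speckles, the compartments that store splicing factors, and it is highly expressed in neurons.

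The RNA under each peak is shown because the 4 genes differ in what part of the RNA was listed. All sequences are from GENCODE M21 transcripts on GRCm38 (mm10), read 5′ to 3′ on the RNA strand, with T for U. For Rn7sk the line gives the last 158 bases of the RNA, chr9:78175303-78175460 on the minus strand, with the last 8 bases, at the U-rich end, in capitals.
Rn7sk: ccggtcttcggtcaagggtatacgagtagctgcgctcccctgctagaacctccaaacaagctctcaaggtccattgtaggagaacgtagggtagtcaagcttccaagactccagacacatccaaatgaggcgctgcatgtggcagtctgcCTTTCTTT
For Snora81 the line gives the whole RNA, chr16:23110756-23110933 on the plus strand, with the triplet 3 bases before the 3′ end in capitals, the place of the ACA box in this class of RNA.
Snora81: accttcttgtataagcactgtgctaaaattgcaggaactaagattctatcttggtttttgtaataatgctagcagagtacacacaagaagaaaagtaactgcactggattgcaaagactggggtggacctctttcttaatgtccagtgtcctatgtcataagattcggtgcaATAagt
For Rn45s the line gives the peak, chr17:39845801-39846000 on the plus strand, read from the unspliced GENCODE transcript of Gm26917, with runs of 3 or more G in capitals.
Rn45s: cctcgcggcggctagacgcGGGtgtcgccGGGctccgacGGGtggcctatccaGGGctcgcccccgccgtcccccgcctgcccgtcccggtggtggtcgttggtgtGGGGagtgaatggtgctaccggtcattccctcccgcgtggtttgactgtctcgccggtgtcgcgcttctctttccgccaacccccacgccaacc
For Malat1 the lines give its 3 peaks on the minus strand in order from the 5′ end, chr19:5802001-5802200, chr19:5801601-5801800 and chr19:5801001-5801200. Capitals in the first mark a stretch that many other genes share in whole or in part.
Malat1 peak 1: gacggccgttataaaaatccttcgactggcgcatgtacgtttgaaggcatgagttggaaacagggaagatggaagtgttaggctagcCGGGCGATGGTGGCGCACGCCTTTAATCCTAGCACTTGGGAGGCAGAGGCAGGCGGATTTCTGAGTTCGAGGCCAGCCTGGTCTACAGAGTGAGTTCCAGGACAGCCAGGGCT
Malat1 peak 2: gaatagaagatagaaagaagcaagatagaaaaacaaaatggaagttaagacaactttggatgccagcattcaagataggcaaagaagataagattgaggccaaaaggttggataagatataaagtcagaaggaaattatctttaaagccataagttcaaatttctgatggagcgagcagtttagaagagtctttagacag
Malat1 peak 3: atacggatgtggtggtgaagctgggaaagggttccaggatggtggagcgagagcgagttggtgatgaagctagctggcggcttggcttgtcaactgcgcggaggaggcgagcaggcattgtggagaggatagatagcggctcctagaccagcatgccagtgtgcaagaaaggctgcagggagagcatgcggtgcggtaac

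The listed peaks covered different parts of their RNAs. The peak caller counts reads in bins of a size it selects automatically, so the edges of a peak are edges of bins. They do not mark where the recovered RNA began or ended. The Rn7sk peak (chromosome 9, 78175241 to 78175460) ran from base 174 of the 331-base RNA through its 3′ end, covering 47.7% of the RNA, and went on for 62 bases past the end. The Snora81 peak (chromosome 16, 23110711 to 23110920) began 45 bases before the annotated 5′ end and covered the first 165 of 178 bases, so the capital triplet lay outside it. The Rn45s peak (chromosome 17, 39845801 to 39846000) covered bases 2805 to 3004 of the 5833-base RefSeq span on that chromosome. It ended 353 bases before Rn18s-rs5, the annotated 18S sequence, which had no peak on either strand. It therefore lay in the spacer upstream of 18S and not in a mature ribosomal RNA. Its place was measured within this span only and not along the whole precursor. The 3 Malat1 peaks spanned bases 473 to 672, 873 to 1072 and 1473 to 1672 of the unspliced 6983-base RNA. All 3 lay in its first 23.9% and together covered 600 bases, or 8.59% of it. The nearest other peak on the same strand of the list was 303 kb from Rn7sk, 59.9 kb from Snora81, 5210 kb from Rn45s and 373 kb from Malat1.

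**Figure D1:**
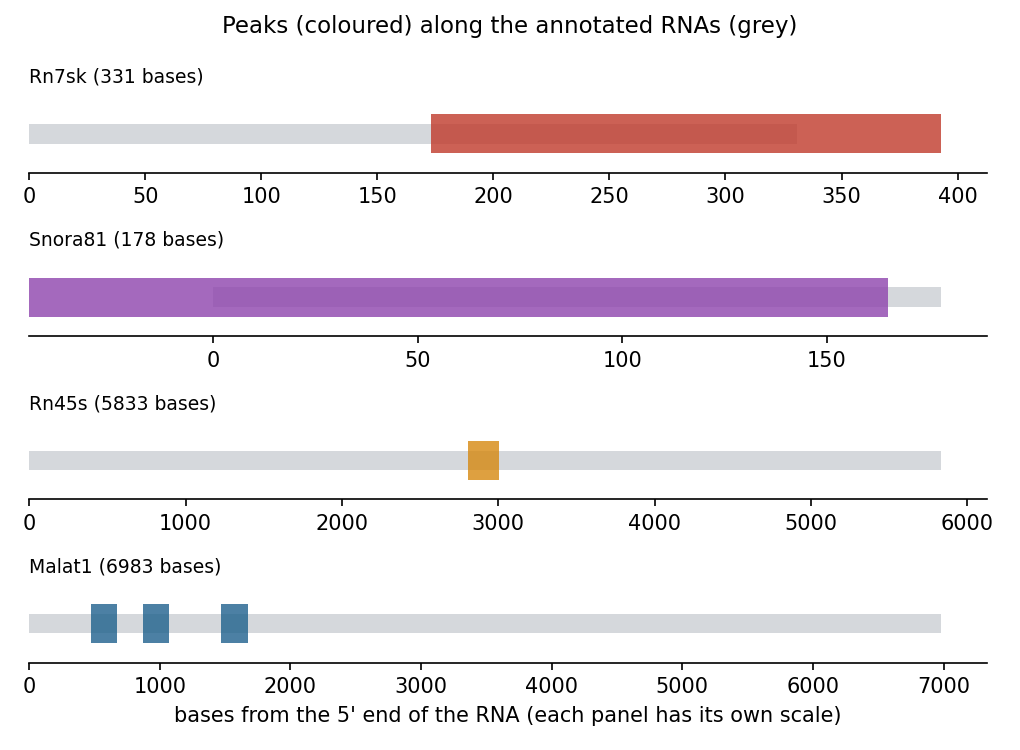
Place of the 6 peaks (coloured bars) along the annotated RNAs (grey bars), in bases from the 5′ end with a separate scale for each RNA. For Rn45s the grey bar is the RefSeq span on chromosome 17 and not the whole precursor. The Rn7sk peak runs past the 3′ end, and the Snora81 peak starts before the 5′ end. The Rn45s peak lies near the middle of that span, and the 3 Malat1 peaks lie in the first 23.9% of the RNA.

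Rn7sk held far more input reads than any other listed region. Its peak had 23417 reads in the IP and 674466 in the input, which are 327 and 11313 reads per 1000000 aligned reads (RPM). The input was 34.6 times the IP after division by aligned reads (95% interval 34.1 to 35.0), and the IP to input ratio was 0.0289 (0.0286 to 0.0293). These intervals are exact conditional binomial intervals that cover counting error only and compare 2 libraries. In the input this peak, which covers part of the RNA, took 1.13% of all aligned reads. The next highest peak outside the 4 genes, over the pseudogene Gm14303 on chromosome 2, had 12030 input reads, so Rn7sk stood 56.1 times above it. Rn7sk also ranked 4 of 2296 peaks by IP reads.

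Snora81 had the lowest ratio of the 882 peaks on assembled chromosomes. Its peak held 575 IP reads and 50303 input reads, or 8.04 and 844 RPM. The input was 105 times the IP (96.7 to 114), at a ratio of 0.00953 (0.00876 to 0.0103). It ranked 2 by input reads and 739 by IP reads. Of the peak's 210 bases, 13 lay in an exon of the first-numbered Eif4a2 transcript and the rest in its intron, and Eif4a2 had no other peak opposite its strand. Some Eif4a2 transcripts keep this intron, and the annotated miRNA gene Gm49346 lies within the same bases, so the reads of Snora81, Gm49346 and unspliced Eif4a2 cannot be told apart.

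The Rn45s spacer was also higher in the input, by a smaller margin. The peak held 2798 IP reads and 8507 input reads, or 39.1 and 143 RPM. The input was 3.65 times the IP (3.49 to 3.81), at a ratio of 0.274 (0.263 to 0.286). GENCODE does not list Rn45s here and names these bases Gm26917, a long noncoding RNA gene on the same strand, 1 exon of which holds all 200 bases of the peak.

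Malat1 was higher in the IP at each of its 3 peaks. The first peak from the 5′ end held 1620 IP reads and 251 input reads, a ratio of 5.38 (4.71 to 6.17). The next held 1393 and 250, a ratio of 4.64 (4.06 to 5.34). The peak farthest from the 5′ end held 1980 and 280, a ratio of 5.89 (5.199 to 6.705). The 3 ratios lay close together, and only for peaks 3 and 2 did the interval leave out 1, at 1.27 times (1.06 to 1.53, a normal interval of the log ratio). Peaks 1 and 2 differed by 1.16 times (0.959 to 1.40) and peaks 3 and 1 by 1.10 times (0.913 to 1.32). The 3 intervals treat reads as independent and are not adjusted for comparing 3 pairs, so they do not settle whether the peaks differ. Summed over its peaks, Malat1 had 4993 IP reads and 781 input reads, or 69.8 and 13.1 RPM, at a ratio of 5.33 (4.94 to 5.75).

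**Figure D2:**
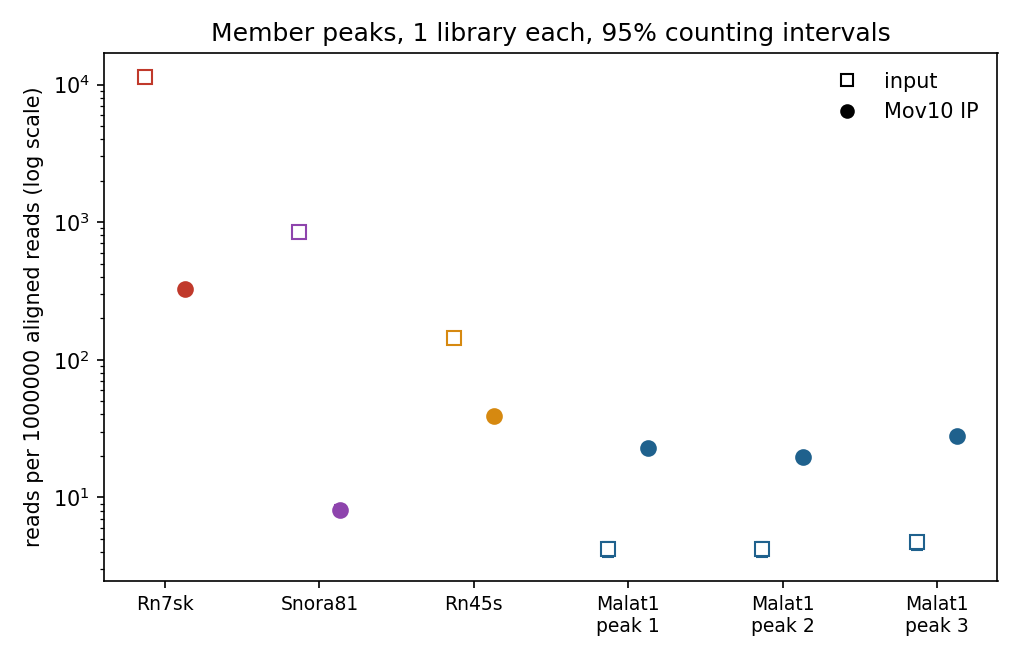
Reads per 1000000 aligned reads of the 6 peaks on a log axis, in the input (open squares) and the Mov10 IP (filled circles), 1 library each, with 95% counting intervals that are mostly smaller than the symbols. Input lies above IP for Rn7sk, Snora81 and Rn45s, and IP lies above input at the 3 Malat1 peaks.

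The order of the RNAs differed between the libraries. Per kilobase of peak, unscaled input reads were 3065754.5 for Rn7sk, 239538.1 for Snora81, 42535 for Rn45s and 1250 to 1400 for the Malat1 peaks. In the IP they were 106440.9 for Rn7sk, 13990 for Rn45s, 6965 to 9900 for Malat1 and 2738.1 for Snora81. Snora81 thus came second of the 4 in the input and last in the IP. Within the input Malat1 peaks 1 and 2, with 251 and 250 reads, did not differ beyond counting error.

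The ratio of one RNA to another within the same pair of libraries does not depend on the library totals. By this measure Malat1 stood 19.4 times above Rn45s (17.8 to 21.2), Rn45s 9.47 times above Rn7sk (9.06 to 9.91) and Rn7sk 3.04 times above Snora81 (2.795 to 3.301). From end to end, Malat1 and Snora81 were 559 times apart (500.3 to 625.3). These gaps follow from how the genes were chosen and are given as a description.

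In the whole list, 21 of 2296 peaks (0.915%) had an interval of the ratio below 1 and 1143 (49.8%) had one above 1. On assembled chromosomes 4 of 882 (0.454%) lay below 1. These were Snora81, Rn7sk, Rn45s and a peak over Rps19-ps6, a ribosomal protein pseudogene in an intron of Tecpr2, with 3111 IP reads and 2854 input reads (ratio 0.909, 0.863 to 0.956). The other 17 peaks below 1 lay on contigs. Because the 4 genes were picked on these counts, nothing is read from how many of their peaks fell on each side.

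The Malat1 ratio lay above 1 but low among chromosome peaks. The median ratio of the 882 was 15.5, and 86 of them (9.75%) were at or below the summed Malat1 ratio. The 4 peaks nearest to it in log2 ratio, among gene peaks with at least 100 IP reads and 10 input reads, lay over Sf3b2, a splicing factor subunit (ratio 5.36), Atg12, an autophagy gene (5.37), the pseudogene Gm6440 (5.24) and Tkt, the enzyme transketolase (5.43). These 4 were picked for their ratio. Peaks next to the Malat1 peaks in input reads were picked without regard to it. Rtn3, a reticulon, had a ratio of 3.89 with 281 input reads, Dlgap3, a postsynaptic scaffold, 8.61 with 280, Gnas, a G protein subunit, 15.5 with 249, and Syt1, a synaptic vesicle calcium sensor, 15.6 with 252.

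**Figure D3:**
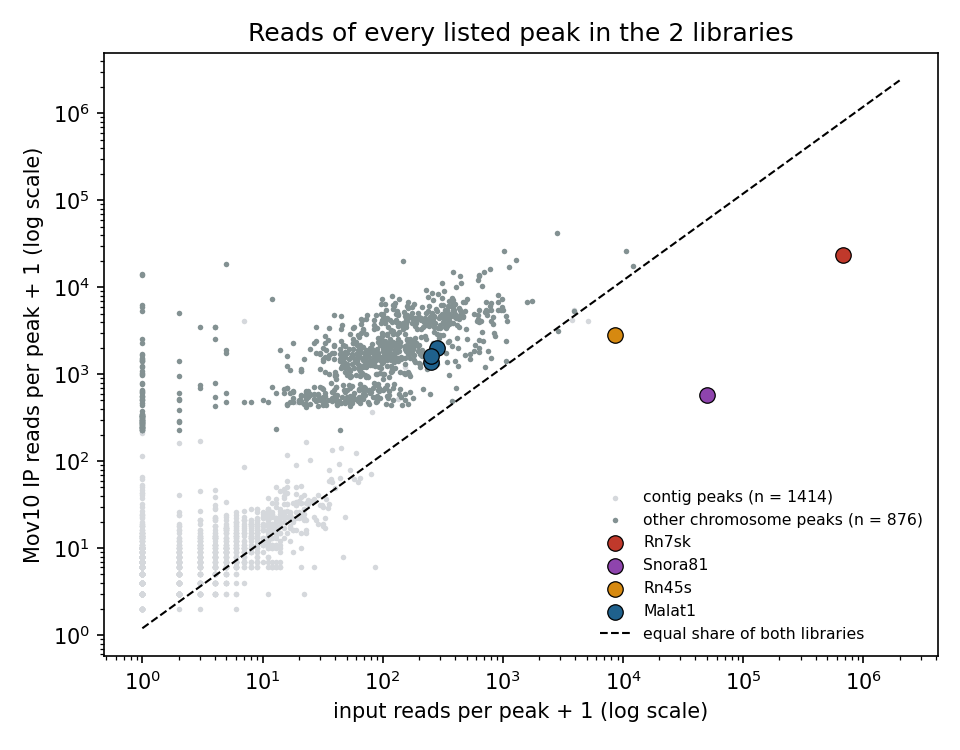
IP reads against input reads of the 2296 listed peaks, both with 1 added and on log axes, with a dashed line at an equal share of the aligned reads of both libraries. Rn7sk, Snora81 and Rn45s lie below the line and are among the 5 peaks with the most input reads, and the 3 Malat1 peaks lie above it at 250 to 280 input reads.

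Peaks next to the other members in input reads had ratios nearer to 1. Gm14303, below Snora81 in that order, had 17746 IP reads and 12030 input reads (ratio 1.23, 1.20 to 1.26). Rps27rt, a retrotransposed ribosomal protein gene just above Rn45s, had 26278 and 10556 (2.08, 2.03 to 2.12). The contig peak just below Rn45s had 4141 and 5084 (0.679, 0.652 to 0.708). Snora81, Rn7sk and Rn45s together held 79.2% of all input reads within peaks (79.1 to 79.3, Clopper-Pearson) and 1.144% of the IP reads within peaks (1.130 to 1.158), with Rn7sk alone at 72.8% of the input. Summed over all peaks of the list, the IP to input ratio was 2.11, and it was 10.006 without these 3 peaks.

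**Figure D4:**
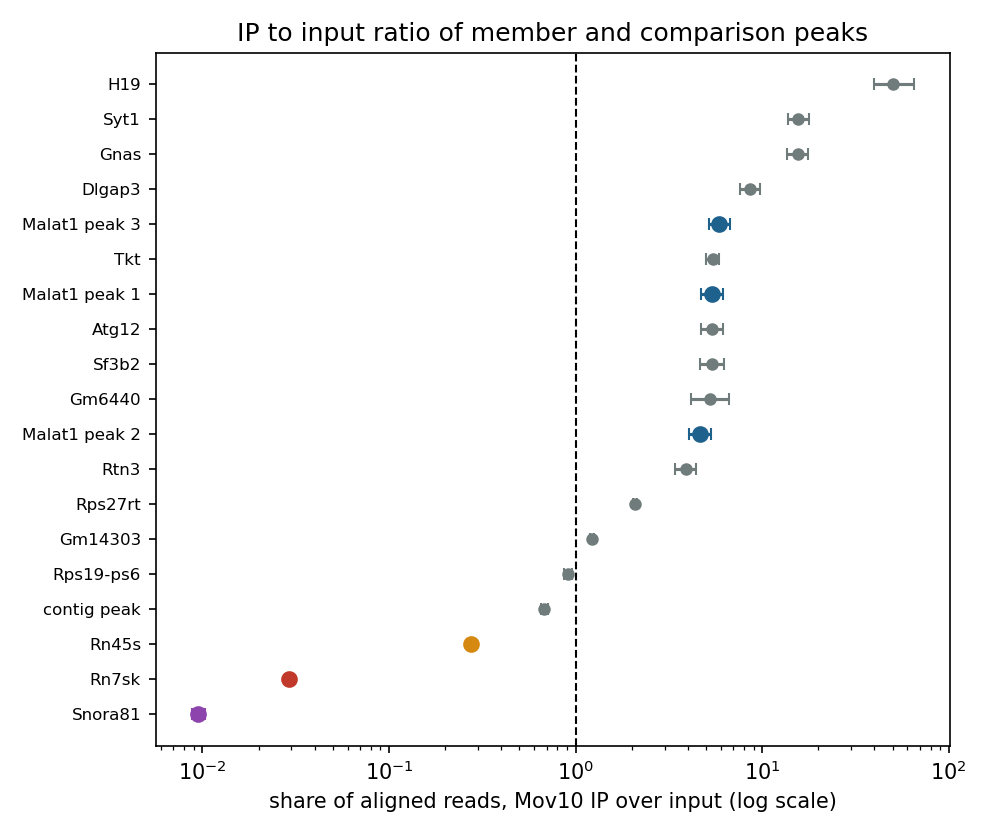
IP to input ratio (log axis) of the 6 peaks (large coloured points) and of peaks chosen for comparison, without those of Npm1 (small grey points), with 95% counting intervals and a dashed line at 1. Snora81, Rn7sk and Rn45s lie lowest, the 3 Malat1 peaks lie between Rtn3 and Dlgap3, and H19 lies highest of those plotted.

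The peak caller's own calls did not follow these ratios. Adjusted p was listed at 0 for Rn7sk, 1 for Snora81 and 0.0861 for Rn45s, and it was at most 3.31e-270 for the Malat1 peaks. What the caller tested to give 0 for Rn7sk, whose input exceeded its IP, was not resolved. By adjusted p 4 of the 6 peaks, Rn7sk among them, passed 0.05, beside 43.4% of all peaks. The empirical false discovery rate (eFDR) of the caller was 0.4 for Rn7sk, 1 for Snora81, 0.133 for Rn45s and 0.37 to 0.4 for Malat1, so that 0 of the 6 passed 0.05, beside 23.4% of all peaks. With 1 library per group both columns are the caller's and no replicated test stands behind them.

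The bases under the peaks had little in common among the 4 genes. They were compared with 447 other chromosome peaks that lie within a single exon. The Rn45s peak had 71% G and C, above 432 of the 447, and 5 runs of 3 or more G. The part of Snora81 under its peak had 38.2%, above 24 of them, and 30.9% U. The Malat1 peaks ranged from 34.5% to 58.5%, with 44% A at peak 2, above 445 of the 447, and 41.5% G at peak 3, above 444. The Rn7sk part had 52.5% G and C, close to the median of 52%. The predicted folding energy, a minimum free energy for which a lower value means a more stable fold, was −0.278 kcal/mol per base for Rn7sk, −0.339 for Snora81, −0.428 for Rn45s and −0.137 to −0.325 for Malat1, beside a median of −0.267. Of 67 other peaks within 5 percentage points of Snora81 in G and C, 0 had a lower energy per base, and their lowest value was −0.272, although the Snora81 part is 165 bases long and these peaks are 200 bases or longer. Folding into hairpins is known for its class of RNA.

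**Figure D5:**
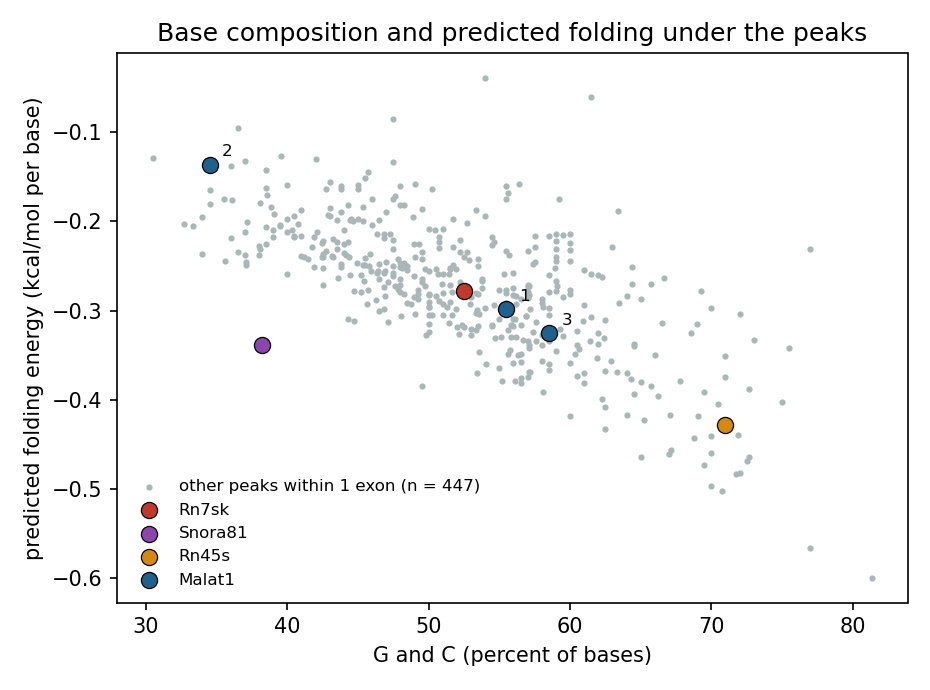
Predicted minimum free energy per base against the percentage of G and C for the RNA under the 6 peaks (coloured, Malat1 peaks numbered from the 5′ end) and under 447 other peaks within 1 exon (grey). Rn45s lies at 71% G and C, Snora81 lies below the grey points near 38.2%, and the second Malat1 peak lies at the upper left at 34.5%.

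Known sequence elements were then sought on the RNA strand. GATC, the core of the Hexim binding site of 7SK RNA, occurred 3 times in Rn7sk, at bases 13, 42 and 64, and 0 times under the peak, where 47.4% of the other peaks held it. The edge of that peak is a bin edge, so the 0 does not show which part of the RNA was recovered. Snora81 held 7 matches to ANANNA, the H box consensus, some of them overlapping and the first at base 74, and 90.2% of other peaks held one too. Its letters at the place of the ACA box, from base 173, were ATA. GGGG stood in the parts under the Snora81 and Rn45s peaks and in 49% of the other peaks, and TTTTT in Snora81 and 22.1% of them.

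Copies of these sequences bear on the counts, because reads with several alignments were each placed at 1 locus by the peak caller. A match was a run of 100 or more bases that was at least 95% identical in a GENCODE transcript of another gene. Rn7sk and Rn45s had 0 such matches in other genes, and the closest to the Rn7sk part was the 7SK-like gene Gm23037 at 93.7% over 159 bases. Copies outside GENCODE transcripts were not sought, so 0 matches does not show that a sequence has a single copy in the genome. Reads from unlisted copies could be among the counts, which was not tested. The part of Snora81 matched the snoRNA gene Gm22519 on chromosome 15 (71794188 to 71794365) at 98.8% over 165 bases, and Gm22519 had no peak opposite its strand. Malat1 peaks 2 and 3 had 0 matches. The first Malat1 peak had matches in 271 other genes, 117 in the same orientation and 154 in the opposite one. The median start and end of these matches bound a stretch of 113 bases, bases 560 to 672 of the RNA. This stretch reads as a B1 element, a short interspersed repeat (SINE) of the mouse genome. A looser match, 80 or more bases at 80% identity, was found in 3 of the 447 other peaks (0.671%), over Ufd1, Ifngr2 and Tmem234. Without the first peak the summed Malat1 ratio was 5.31 (4.84 to 5.82). Among the 271 genes is Gm37376, a gene model on the other strand that holds the whole first peak, so its reads and those of Malat1 are separated by strand alone.

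Other noncoding RNAs were looked up in the same way. Of all 55536 GENCODE genes 583 (1.05%) shared a base with a peak opposite their strand, and of 22028 protein-coding genes 468 (2.12%) did. Of 20 annotated structural RNA genes in a list with Rmrp, Rpph1, vault, Y, spliceosomal and ribosomal RNAs, Rn7sk and Rn45s had one, and 8 of the 20 lay opposite a chromosome strand on which the list holds no peak at all. The gene list named 21. Rn18s-rs5, placed by RefSeq and without a peak on either strand, was left out, while Rn45s, also placed by RefSeq, was kept. Of 24 annotated nuclear or neuronal long noncoding RNA genes, among them Neat1, Meg3, Miat, Xist and Snhg11, Malat1 and H19 had one, with 4 opposite a strand without peaks. H19, an imprinted growth-related RNA that is high in fetal tissue, had 4303 IP reads and 71 input reads on chromosome 7 (142577201 to 142577400), a ratio of 50.5 (40.0 to 64.8). By GENCODE class, 2 of 1558 snoRNA and scaRNA genes, 1 of 562 miscellaneous RNA genes, 11 of 10155 long noncoding RNA genes, 0 of 1385 snRNA genes and 0 of 356 rRNA genes shared a base with a peak. Nothing particular to noncoding RNAs is read from these counts, and absence from a list of called peaks does not give a level for the RNA.

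The mRNAs of proteins that work with these RNAs were counted against the 2.12% of protein-coding genes with a peak. Among protein-coding genes opposite a strand with listed peaks the share was 2.82%. Of the 7SK particle genes Hexim1, Hexim2, Larp7, Mepce, Cdk9, Ccnt1 and Ccnt2, 0 of 7 had a peak in their mRNA. For the H/ACA particle the count was 0 of 6 and for Malat1 partners and processing factors 0 of 7. Of these genes, 2 of the 7SK particle and 3 of the H/ACA particle lay opposite a strand without peaks. Of 10 genes for ribosomal RNA synthesis and the nucleolus only Npm1, a nucleolar chaperone, was listed, at 3 exonic peaks with 1763, 1727 and 2386 IP reads against 69, 29 and 27 input reads. Lists of 6 to 10 genes are too short to set these counts apart from either share. The Npm1 ratios were 21.3, 49.6 and 73.7, above the summed Malat1 ratio.

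The labelled tissue was set beside defining markers. Gene lists were chosen with earlier results of these data known, so these counts are a description and do not test the tissue. Peaks lay in 3 of 6 neuronal genes (Tubb3, Map2 and Snap25), 3 of 4 astrocyte and radial glial genes (Sparcl1, Apoe and Ptprz1) and 1 of 3 oligodendrocyte lineage genes (Olig1). They lay in 0 of 3 microglial, 0 of 2 blood, 0 of 2 liver and 0 of 2 heart genes. The share was 2.12% of all protein-coding genes and 2.82% of those opposite a strand with listed peaks. Of the lists without a peak, 1 microglial and 1 liver gene lay opposite a strand on which no peak is listed, and at this background a count of 0 does not show that those cells were absent. As a check of strand, 726 of 882 chromosome peaks lay over exons on the opposite strand only and 10 over exons on the same strand only.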

How the data were processed

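RNA from a Mov10 IP and total input RNA of 28 pooled P2 brains were sequenced as 1 library each. Per the labels, base calls came from bcl2fastq 2.17.1.14 and reads were aligned with TopHat2 2.1.1 to mm10. The authors kept many alignments per read, called peaks with RIPSeeker on each strand, and let it place each such read at 1 locus. The bin size was left to RIPSeeker. The deposited table gives, per peak, unscaled read counts of the IP and the input, counts per kilobase, and the caller's p-values and eFDR. The counts are the values used here.

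Counts were divided by the aligned reads stated for each library, 71522027 for the IP and 59620379 for the input, and the IP share was divided by the input share. A count of 0 was set to a floor of 3 reads. Ratios carry exact conditional binomial 95% intervals, and shares carry Clopper-Pearson intervals. The code for the ratio intervals was run on simulated independent Poisson counts. These meet the interval's own assumption, so the run does not show how well the intervals cover real reads. PCR reads without molecular identifiers are not independent molecules. With 1 library per group no replicated test was run.

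Members and gene lists were chosen with earlier results of these data known. Named genes are the 4 members, genes of the noncoding and partner lists with a peak, genes that hold a member peak, the 4 chromosome gene peaks nearest Malat1 in log2 ratio, chromosome peaks with an interval below 1, and the peaks next to each member in input reads. Genes came from RefSeq (GRCm38.p6) and GENCODE M21, and the Rn45s span from the RefSeq record the authors overlapped. No genome sequence was used, so sequences, composition and copies came from GENCODE transcripts, and copies were sought there and not in the genome as planned. The work used Python 3.11.15, numpy 2.4.6, scipy 1.17.1, matplotlib 3.10.9, BLAST+ 2.17.0 and ViennaRNA 2.7.2. Alternatives were other library totals, a pseudocount, stricter thresholds, and other overlap and annotation rules. The irrelevant-antibody IP was not analysed here.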

Additional observations from a re-analysis of the deposited data

How the results depend on the processing

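Of 40 alternatives run, 23 left a value within its own counting interval or a count within 1.5 times, 17 moved it and 0 reversed a direction. A reversal was scored for ratios only, not for counts or shares. Other totals multiply every ratio by 1 factor, such as 0.613 for uniquely aligned and 0.820 for all sequenced reads. Such factors could not carry any of these ratios across 1, so the 0 is no support for the directions. Many of the 40 repeat the same setting over Malat1 and its own peaks. Dividing by uniquely aligned reads, while the counts still held reads with several alignments, gave ratios of 0.0177 for Rn7sk, 0.00584 for Snora81, 0.168 for Rn45s and 3.27 for Malat1. Dividing by all sequenced reads gave 0.0237, 0.00781, 0.225 and 4.37 in the same order. At an eFDR of 0.05 in place of an adjusted p of 0.05, 0 of the 6 peaks passed in place of 4. The share of peaks with a ratio below 1 was 18.9% over the whole list, 0.454% without contigs and 4.93% without peaks under 10 IP reads. Of the 435 peaks behind the first value, 252 had 0 input reads and fell below 1 only through the floor of 3 reads, and the other 183 were 7.97% of the list. No paired analysis was possible because each group has 1 library, and for the same reason no library could be left out. The Malat1 sum without its first peak was added after seeing the data. Depth limits the Malat1 peaks most, with 250 to 280 input reads each.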

Other observations

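The other listed noncoding genes mostly shared their peak with another gene. Gm22879, the only other small nucleolar RNA gene with a peak, overlapped it by 33 bases, and the peak lay over an exon of the ribosomal protein gene Rpl7a, with 5064 IP reads and 1 input read. Of the 11 long noncoding RNA genes with a peak, Gm16582, Gm26904 and AC125091.2 held theirs in an intron where Cdk5r2, Mea1 or Gm6304 has an exon, and AC161456.1 and Gm5914 shared exon bases with Lsm3 and Agrp. 6030443J06Rik held its peak in an intron with no exon of another gene on that strand, at 4524 IP reads and 821 input reads (ratio 4.59, 4.26 to 4.95). H19, Gm7292, Gm10076, Gm26917 (the Rn45s spacer) and Malat1 had theirs in exons of no other gene on that strand, and of these Gm7292 had the ratio next above that of Rn45s, 2.52 (2.123 to 3.002), with 538 IP reads and 178 input reads. The ratio of Gm10076 was 3.86 (3.58 to 4.16).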
